A study of Mus musculus with 2 samples.

Results

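Myc and its partner network were followed here as 7 genes, Myc, Mycn, Max, Mxi1, Mxd4, Mnt and Mlx, taken by name from the 14366 genes listed in both deposited tables. All 7 were found by symbol. The cells were mouse hematopoietic stem cells (HSC), sorted from marrow of 8 wildtype C57/B6 mice aged 6 to 8 weeks, which was pooled, by absence of lineage markers, presence of Sca-1, c-Kit and CD150, and absence of CD48. All were grown in liquid culture for 48 h with cytokines, among them SCF at 100 ng/ml. The vehicle culture received sterile water and the DFO culture deferoxamine (DFO), an iron chelator, at 10 µM. Each culture gave 1 single-cell library from 20000 loaded cells, so the spread between cultures is unknown, and sizes are described without tests.

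MYC and its relative MYCN are transcription factors that bind DNA as dimers with MAX, mostly at the sequence CACGTG (the E-box), and are known for driving ribosome production, nucleotide synthesis and entry into the cell cycle. MAX also pairs with the MXD proteins, among them MXI1 and MXD4, and with MNT, which recruit SIN3 and histone deacetylases to the same sites and so act as antagonists. MLX is a MAX-like protein that pairs with MXD4, MNT and the glucose-responsive factors MLXIP and MLXIPL. In HSC, MYC and MYCN are known as partly redundant regulators of proliferation, survival and exit from the niche.

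The E-box lies in some promoters of the network. RefSeq promoter windows (GRCm38.p6, 250 bases before to 50 after a transcript start) were matched for 6 of the 7 genes, all except Myc, and gave 8 windows, 3 of them of Mxi1. CACGTG, which reads the same on both strands, was present in 4 of the 8 windows (50%), those of Max, Mlx, Mnt and Mxd4, and in neither the Mycn window nor any Mxi1 window. Over the wider network of 12 genes it was in 5 of 14 windows (35.7%), with no match for Mga, Mlxip, Mxd1 or Mxd3. Over the 8993 promoters of all genes measured at a mean of at least 5 CPM (molecules of the gene per 1000000 molecules), 949 or 10.6% held it, and of all 32851 promoters 7.15%. The sequence around each match is shown because it is the site class that MAX dimers recognise. For Max the printed run stops at the end of the motif. Capitals mark the motif, and each run reads 5′ to 3′ on the strand of its gene.
Max, chr12:76962246-76962278, minus strand: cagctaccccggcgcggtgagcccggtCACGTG
Mlx, chr11:101087223-101087282, plus strand: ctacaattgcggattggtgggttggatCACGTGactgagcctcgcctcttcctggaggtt
Mnt, chr11:74830774-74830833, plus strand: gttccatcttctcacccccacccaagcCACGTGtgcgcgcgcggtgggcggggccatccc
Mxd4, chr5:34187897-34187956, minus strand: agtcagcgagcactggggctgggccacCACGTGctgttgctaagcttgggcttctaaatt
The motif begins 3 bases before the annotated start of Max, 40 before that of Mlx, 123 before that of Mnt and 219 before that of Mxd4. A match describes these letters and is no evidence of binding.

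The tables held 8708 vehicle and 9852 DFO cells, with 260938938 and 284326017 molecules (unique molecular identifiers, UMIs). The median cell had 27805.5 UMIs in the vehicle and 27114 in the DFO library, and 24 cell barcodes occurred in both libraries. A level in CPM covers the molecules of a gene in all cells of a library or cluster. A difference is log2((DFO CPM + 1)/(vehicle CPM + 1)). The kit counts 3′ ends once per molecule, so levels were not divided by gene length, and capture of different genes may still differ. Ranges in parentheses are exact 95% intervals (Poisson for levels, Clopper-Pearson for shares) and cover counting error only; those of a difference are for the ratio without the added 1.

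Myc was the most abundant gene of the network and was higher in the DFO library. It lay at 91.9 CPM (90.8 to 93.1) in vehicle and 108 CPM (106 to 109) in DFO, a log2 difference of 0.22 that exceeded those of 98% of the 8886 genes whose mean was at least 5 CPM. Mycn, which codes for the second MYC family member expressed here, lay at 59.9 CPM (59 to 60.8) and 62.9 CPM (62 to 63.8), a difference of 0.069. Their shared partner Max was level, at 51.3 CPM (50.4 to 52.2) and 51.4 CPM (50.6 to 52.3). Of the 8886 genes, 19.2% were 0.1 or more higher and 14% were 0.1 or more lower in the DFO library, around a median of 0.019. Against that background 1 member passed 0.1 upward (Myc) and 2 passed it downward (Mxd4 and Mxi1), and the other 4 lay within 0.1. The Mycn difference passed 0.1 under 4 of 8 other settings, at 0.11 by the mean of per-cell CPM, in thinned cells and with equal cluster shares, and at 0.13 without the 8% of cells with most UMIs. Mlx reached 0.10 in thinned cells, and Mxi1 was at -0.079 with 10 CPM added in place of 1.

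Mxd4, an antagonist associated with cells leaving the cycle, had the lowest difference of the members, -0.32, below all but 1.55% of genes. It was -0.27 in thinned cells and -0.20 with 10 CPM added. Its level was 15.3 CPM (14.9 to 15.8) in vehicle and 12.1 CPM (11.7 to 12.5) in DFO. Mxi1 lay at 23.5 CPM (22.9 to 24.1) and 21.7 CPM (21.2 to 22.3), a difference of -0.11. Mnt, the antagonist that is expressed broadly and serves as a constant counterweight to MYC, was at 14.9 CPM (14.5 to 15.4) and 15 CPM (14.5 to 15.4). Mlx was at 20.1 CPM (19.6 to 20.7) and 20.6 CPM (20.1 to 21.1). For Max, Mnt and Mlx the intervals of the libraries overlapped.

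**Figure D1:**
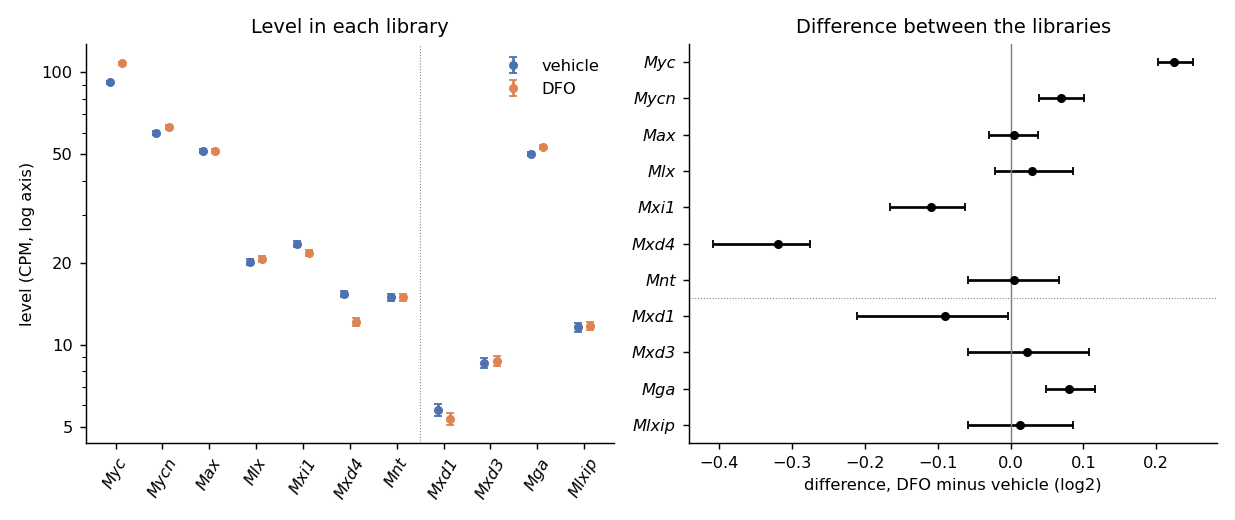
Left, level of each network gene in CPM (log axis) in the vehicle and DFO libraries, with the 7 members left of the dotted line and other network genes right of it. Right, log2 difference DFO minus vehicle. Bars are exact 95% counting intervals, those on the right for the ratio without the added 1. Myc (0.22) stands at the high end and Mxd4 (-0.32) at the low end.

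The remaining genes of the network were mostly less abundant. Mga, which codes for a large protein that pairs with MAX and recruits a Polycomb-type repressor, lay close to Max in level, with 50.3 CPM in the vehicle and 53.2 CPM in the DFO library (difference 0.08). Mxd1 was at 5.75 and 5.34 CPM (-0.09), Mxd3 at 8.56 and 8.71 CPM (0.023) and Mlxip at 11.6 and 11.7 CPM (0.013). Mlxipl had only 25 molecules in each library, and Mycl was not analysed here.

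The balance of the network was taken as the ratio of Myc plus Mycn molecules to Mxi1 plus Mxd4 plus Mnt molecules. In the vehicle library 152 CPM of Myc and Mycn stood against 53.8 CPM of the antagonists, a ratio of 2.82. In the DFO library 170.4 CPM stood against 48.8 CPM, a ratio of 3.49. The log2 ratio was thus 0.31 higher in the DFO library (0.27 to 0.35, an approximate 95% counting interval). With these 3 antagonists both sides contributed, since the MYC sum was higher and the antagonist sum lower. The difference was 0.51 against Mxd4 alone, 0.28 against Mxi1 alone and 0.16 against Mnt alone. With Mxd1, Mxd3 and the abundant Mga counted among the antagonists it was 0.20, from a ratio of 1.28 to 1.47.

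To see where in the culture these transcripts lay, all cells were clustered without using any of the 7 genes, which gave 9 clusters. Cluster 2 was megakaryocyte-like, with 11 of 12 megakaryocyte markers seen in at least 10% of its cells and Pf4 and Treml1 among its 10 leading genes. Cluster 7 was HSC-like, with Sult1a1, Procr and Ly6a among its 10, and cluster 8 was neutrophil-monocyte-like, with Mpo, Ctsg, Elane and Ms4a3, beside the basophil gene Mcpt8. The other 6 stayed unnamed. Cluster 0 was led by genes such as Hist1h2bc and Ung, cluster 1 by histone genes, cluster 3 by mitosis genes such as Nusap1, cluster 4 by a mixture of Cpa3, Klf1 and Aqp1, and cluster 6 by Trnp1 and Il1rl1. Cluster 5 held shallow cells with a median of 6911 UMIs. As the clusters were made from expression, levels across them are a description.

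Myc was highest in the neutrophil-monocyte-like cells, at 162 CPM (148 to 178) in vehicle and 150.4 CPM (135 to 167) in DFO. The HSC-like cells followed, at 137 CPM (129 to 145) and 139.6 CPM (133 to 147), and the intervals of these clusters met within the DFO library. Clusters 0 and 1 came next, at 111 and 107 CPM in vehicle and 121 and 123 CPM in DFO. Cluster 4 had 94.9 CPM and cluster 3 had 89.7 CPM in the vehicle library, with overlapping intervals, and 91.9 and 99.5 CPM in the DFO library. The megakaryocyte-like cells were low, at 70.3 CPM (68.5 to 72.2) in vehicle and 88.4 CPM (86 to 90.9) in DFO, and did not differ beyond their intervals from clusters 5 (66 CPM) and 6 (68.5 CPM) in vehicle. In the DFO library cluster 5 lay at 88 CPM and cluster 6, the lowest, at 70.4 CPM.

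Mycn had another order. It was highest in the HSC-like cells, at 85.7 CPM (79.8 to 92) in vehicle and 96.3 CPM (90.6 to 102) in DFO. The megakaryocyte-like cells were next, at 81.5 CPM (79.5 to 83.6) and 79.6 CPM (77.4 to 82). In vehicle the intervals of these clusters overlapped, and in DFO the megakaryocyte-like interval met that of cluster 5 (63.5 to 80.3). In the neutrophil-monocyte-like cells, where Myc was highest, Mycn was at 7.5 CPM (4.64 to 11.5) and 15.6 CPM (11 to 21.7). After thinning to 10000 UMIs a Mycn molecule was seen in 8.99% of these cells in vehicle (3.96% to 16.9%) and 10.1% in DFO (4.47% to 19%), against 47.8% and 55.5% of HSC-like cells. These cells had the lowest Mycn level of the 9 clusters in these same data, and no cell type was fixed as lacking Mycn. Their share is therefore no measured baseline for free RNA in droplets. The median depth before thinning was 30707 and 26142 UMIs in the neutrophil-monocyte-like and 25300.5 and 24290.5 UMIs in the HSC-like cells. In the vehicle library Mycn exceeded Myc in the megakaryocyte-like cluster, 81.5 against 70.3 CPM, and lay within counting error of it in cluster 5, 65 against 66 CPM.

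**Figure D2:**
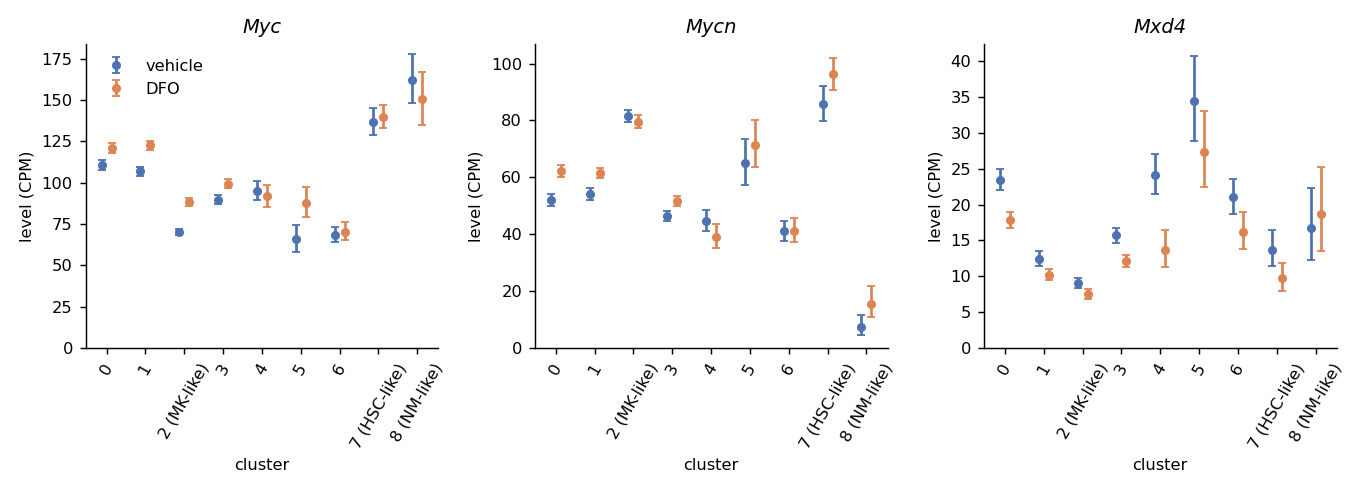
Level of Myc, Mycn and Mxd4 in CPM by cluster, for the vehicle and DFO libraries, with exact 95% Poisson intervals (MK-like, megakaryocyte-like; NM-like, neutrophil-monocyte-like). Myc and Mycn are both high in cluster 7, cluster 8 has much Myc and little Mycn, and Mxd4 is lower in the DFO library in clusters 0 to 7.

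Of Mxi1, Mxd4 and Mnt, Mxd4 varied most between clusters, 3.81-fold from the lowest to the highest in vehicle, against 1.67-fold for Mxi1 and 2.05-fold for Mnt. In the vehicle library it ranged from 9.04 CPM in the megakaryocyte-like cells to 24.1 CPM in cluster 4 and 34.4 CPM in the shallow cluster 5. Mxi1 ranged from 20.3 CPM in the megakaryocyte-like cells to 33.9 CPM in cluster 5, with 33.1 CPM in cluster 6. Mnt stayed between 12.9 and 17.6 CPM outside cluster 5, where it was 26.5 CPM. Max ranged from 39.8 CPM in cluster 6 to 58.8 CPM in the megakaryocyte-like cells, and Mlx from 16.2 to 26.7 CPM. Cluster 5 was also highest in Mga, at 90.5 CPM.

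The difference between the cultures was not the same size in each cluster. Myc was higher in the DFO library in 7 of 9 clusters, in 4 of 4 with coarser and 16 of 16 with finer clusters, and the counting interval of the ratio lay above 0 in 5 of them, clusters 0 (0.12), 1 (0.20), 2 (0.33), 3 (0.15) and 5 (0.41). In the HSC-like cells the difference was 0.03 and in the neutrophil-monocyte-like cells -0.11, both with intervals that include 0. Whether clusters differ in this respect was not tested, since each has 1 library per treatment. Mycn was higher by 0.25 in cluster 0, 0.19 in cluster 1, 0.15 in cluster 3 and 0.17 in the HSC-like cells, and differed by -0.033 in the megakaryocyte-like cells. The neutrophil-monocyte-like difference of 0.97 for Mycn rests on low levels.

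Mxd4 was lower in the DFO library in 8 of 9 clusters, with intervals below 0 in 7. The differences were -0.38 in cluster 0, -0.26 in cluster 1, -0.24 in the megakaryocyte-like cells, -0.35 in cluster 3, -0.78 in cluster 4, -0.36 in cluster 6 and -0.46 in the HSC-like cells. In the HSC-like cells Mxd4 went from 13.7 CPM (11.4 to 16.4) to 9.73 CPM (7.97 to 11.8). Mxi1 was lower in 8 of 9 clusters, with intervals below 0 in 2, clusters 3 (-0.15) and 6 (-0.34). No cluster had an interval for Max or Mnt that left out 0.

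The balance followed. The ratio of Myc plus Mycn to the 3 antagonists was highest in the HSC-like cells, 4.2 in vehicle and 4.88 in DFO, and lowest in cluster 5, 1.38 and 1.81. The megakaryocyte-like cells reached 3.56 and 4.18. The log2 ratio was higher in the DFO library in 8 of 9 clusters, by 0.22 to 0.39, with intervals above 0 in those 8. In the neutrophil-monocyte-like cells it was -0.01 (-0.39 to 0.37). The DFO library held fewer cells of the megakaryocyte-like cluster, 1708 of 9852 against 1996 of 8708. With every cluster given the same share in both libraries the Myc difference was 0.17 and the balance difference 0.31.

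Cell type markers were also compared between the cultures and stand here beside these results. Their counts are to be read against all genes, of which 19.2% were 0.1 or more higher and 14% were 0.1 or more lower in the DFO library. Of the 9 megakaryocyte markers that reached 5 CPM, 8 were 0.1 or more lower in the DFO library and none higher, and the list summed to 1784 CPM in vehicle and 813 CPM in DFO. Pf4 was at 1447 and 592 CPM, Treml1 at 23.9 and 8 CPM. Within the megakaryocyte-like cluster the Myc difference was 0.33 and the balance difference 0.23. All 15 HSC markers were listed in both tables and summed to 666 and 694 CPM, with 4 of 13 higher (Ly6a from 83.9 to 111 CPM) and 3 lower (Pdzk1ip1 from 23.4 to 17.1 CPM). Of 5 erythroid markers 3 were lower, and of 3 neutrophil-monocyte markers all were lower, with sums of 909 and 873 CPM and of 195 and 178 CPM. The lymphoid (20.8 and 21.4 CPM), mast cell or basophil (45.7 and 47.6 CPM), macrophage or dendritic cell (43.9 and 35.7 CPM) and stromal or endothelial (48.2 and 45.1 CPM) lists were low.

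**Figure D3:**
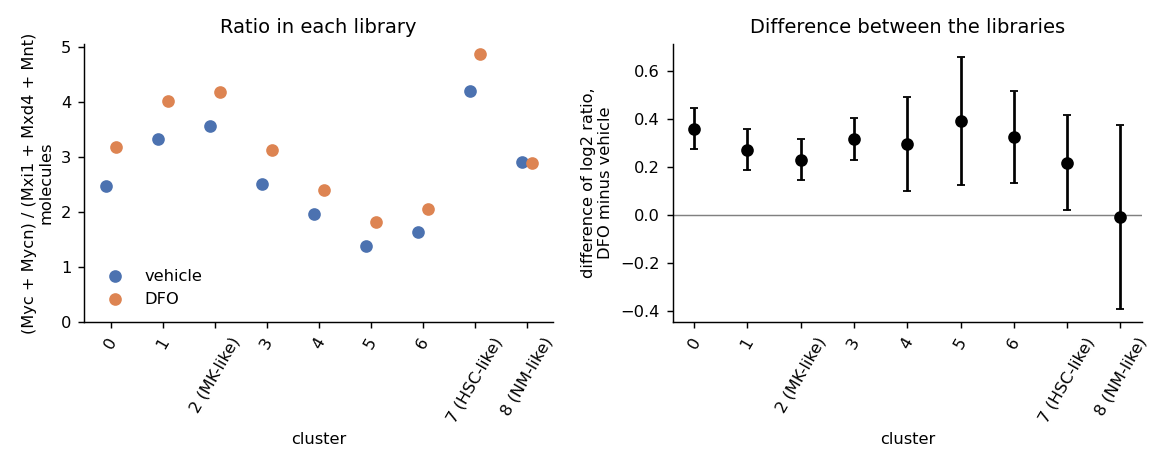
Left, ratio of Myc plus Mycn to Mxi1 plus Mxd4 plus Mnt molecules by cluster in each library. Right, difference of the log2 ratio, DFO minus vehicle, with approximate 95% counting intervals. The DFO library lies higher in 8 of 9 clusters, and cluster 8 (-0.01) has the widest interval.

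Phase calls gave another view of the same cells. In cells thinned to 10000 UMIs, Myc was highest in cells called S (119.8 CPM in vehicle, 133 CPM in DFO), lower in those called G1 (96.4 and 113 CPM) and lowest in those called G2/M (77.7 and 88.9 CPM). Mycn was instead highest in G1 cells, at 62 and 73.9 CPM, against 56.3 and 59.7 CPM in S cells. In G2/M cells Mycn was at 54.6 and 56.3 CPM, and in vehicle its G1 and S intervals overlapped. Mxd4 was highest in G1 cells, at 23.2 and 17.1 CPM, against 14.1 and 13.1 CPM in S cells and 14.8 and 13.1 CPM in G2/M cells. The sum of Mxi1, Mxd4 and Mnt was 67.1 and 58.1 CPM in G1, 54 and 53 CPM in S and 51.9 and 47.7 CPM in G2/M. Mxd3, the MXD member known from cycling cells, had another order, with 2.8 and 2.84 CPM in G1, 3.92 and 4.23 CPM in S and 15.5 and 15.1 CPM in G2/M cells. Max stayed between 49.1 and 53.9 CPM in all phases of both libraries.

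Myc molecules were spread unevenly over cells. After thinning to 10000 UMIs, which left out 351 vehicle and 433 DFO cells, a vehicle cell had 0.963 and a DFO cell 1.11 Myc molecules on average. The variance over the mean was 1.54 and 1.53, above 96.6% of 676 and 97.4% of 613 genes of similar level, whose medians were 1.06 and 1.05. Mycn had 1.39 and 1.46 and Mxd4 1.16 and 1.1, while Max, Mxi1, Mnt and Mlx lay between 1.01 and 1.04. A Myc molecule was seen in 53.1% of thinned vehicle cells (52% to 54.1%) and 58.9% of thinned DFO cells (57.9% to 59.9%), and in 77.1% and 81.4% without thinning. No cell type of the culture was fixed as lacking Myc, so no baseline for free Myc RNA is given.

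Myc-zero cells were defined as those without a Myc molecule after thinning and Myc-high cells as those with 4 or more, the smallest whole number that at most 10% of the cells of both libraries reach. There were 3923 Myc-zero and 366 Myc-high vehicle cells (46.9% and 4.38%) and 3868 and 514 DFO cells (41.1% and 5.46%). The cut goes through a range: 224 vehicle and 293 DFO cells lay at 4 molecules, and 538 and 718 lay 1 below. Myc itself made these classes, so its level in them is only a description. In the molecules that thinning had left over, Myc was at 58.8, 95.4, 124, 146 and 218 CPM in vehicle cells with 0, 1, 2, 3 and 4 or more thinned Myc molecules, and at 69.7, 104, 140.3, 164 and 239 CPM in the DFO cells. Myc-zero cells are thus cells without a molecule at this depth, and free RNA in their droplets was not measured. Myc-high cells had slightly fewer molecules than Myc-zero cells, with medians of 26212.5 against 28574 UMIs in vehicle and 25595.5 against 28044.5 in DFO.

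Of the partners, Mnt was higher in Myc-high than in Myc-zero cells of both libraries. It was at 14.1 CPM in Myc-zero and 18 CPM in Myc-high vehicle cells (0.33), and at 13.7 and 18.9 CPM in DFO cells (0.44). Its interval in vehicle included 0, and in the left-over molecules the differences were 0.38 (0.12 to 0.67) and 0.28 (0.04 to 0.55). Mxd4 differed by 0.23 and 0.18 with intervals that include 0, and by 0.30 (0.038 to 0.60) and 0.40 (0.15 to 0.71) in the left-over molecules. Mxi1 differed by -0.12 and -0.092 in the thinned and by 0.11 and 0.17 in the left-over molecules, so no direction is read for it. The sum of the 3 antagonists went from 56.6 to 61.5 CPM in vehicle (0.12, interval -0.084 to 0.32) and from 49.4 to 55.1 CPM in DFO (0.15, interval -0.028 to 0.34). In the left-over molecules it differed by 0.25 (0.11 to 0.40) and 0.27 (0.14 to 0.42). Left-over molecules are not equal in number between cells, so deeper cells count for more in them. With Myc-zero cells weighted to the clusters of the Myc-high cells, the thinned sum differed by 0.11 in vehicle and 0.13 in DFO. Weighted to their phase calls, it differed by 0.098 and 0.09.

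Mycn was at 55.1 CPM in Myc-zero and 63.7 CPM in Myc-high vehicle cells (0.21) and at 58 and 73.9 CPM in DFO cells (0.35). In the left-over molecules the vehicle difference was -0.10, with an interval that includes 0, and the DFO difference 0.14, so the vehicle direction is not read. Max was level, at 51 and 51.4 CPM in vehicle and 50.7 and 52.9 CPM in DFO, and Mlx differed by -0.19 and -0.12 with intervals that include 0. In the left-over molecules Mlx differed by 0.018 in vehicle and by -0.23 (-0.49 to -0.007) in DFO, so no direction is read for it. Mga was higher in Myc-high cells by 0.39 and 0.22, but its DFO difference was -0.017 with cells thinned to 5000 UMIs. Mxd3 was lower by 0.99 on the log2 scale in vehicle and by 0.54 in DFO, from 8.59 to 3.83 CPM and from 8.63 to 5.64 CPM, and within phase calls its differences were -0.54 and -0.15. Of the 7761 genes compared besides Myc, 3.63% were 0.25 or more higher in Myc-high cells of both libraries and 3.66% were 0.25 or more lower. Of the 6 other members only Mnt passed that line upward, and none passed it downward.

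**Figure D4:**
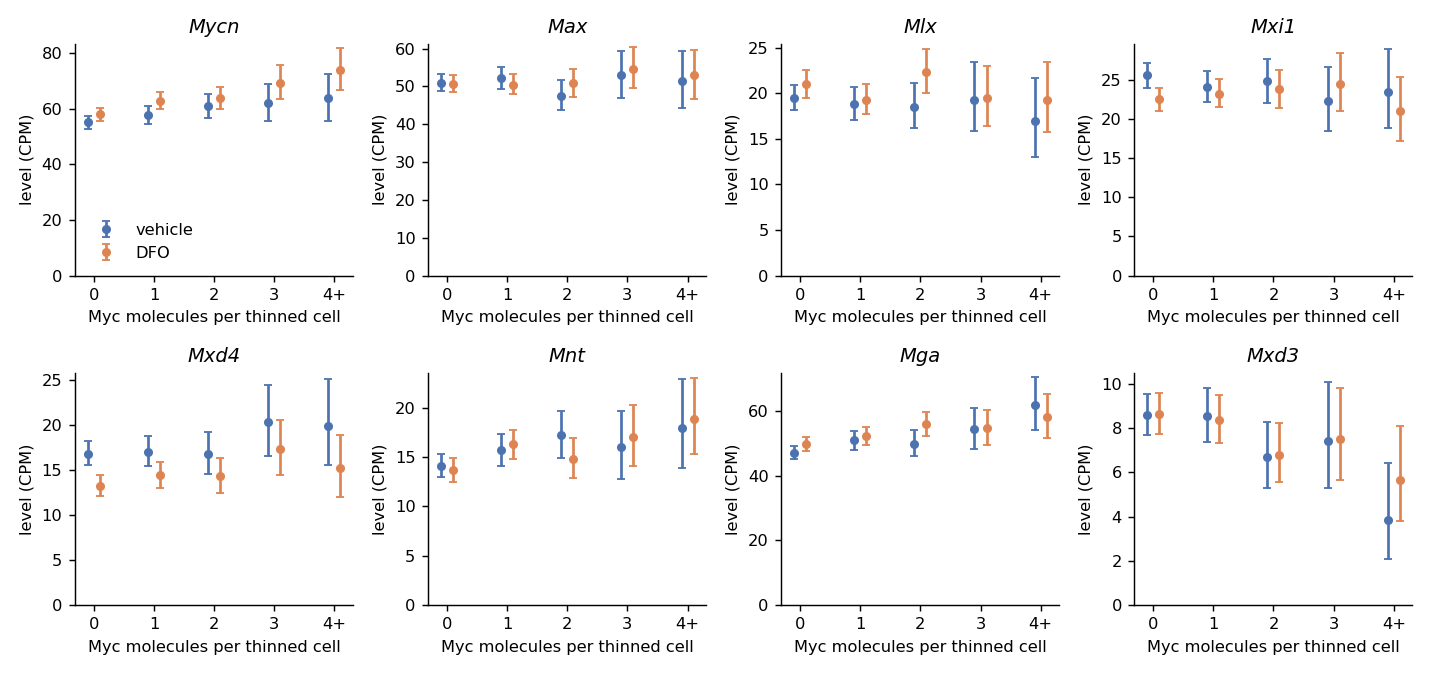
Level in CPM of 6 members and of Mga and Mxd3 in cells with 0, 1, 2, 3 and 4 or more Myc molecules after thinning to 10000 UMIs, for each library, with exact 95% Poisson intervals. Mnt and Mga are lowest and Mxd3 is highest in cells with 0 Myc molecules, and the Max intervals overlap.

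Myc-high cells were a different mixture of cells from Myc-zero cells. Of vehicle Myc-high cells 45.1% were called S and 19.9% G2/M, against 25.1% and 42.7% of Myc-zero cells, and for DFO the shares were 51.4% and 18.7% against 30.2% and 43.1%. The megakaryocyte-like cluster held 13.1% of Myc-high and 26.6% of Myc-zero vehicle cells, and 8.75% and 20.2% of the DFO cells. The HSC-like cluster held 7.65% and 3.16% in vehicle and 6.81% and 3.62% in DFO.

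Cell cycle and lineage genes differed along with that mixture, and their part in the member differences was not tested. With Myc-zero cells weighted to the clusters of the Myc-high cells, Mnt differed by 0.32 in vehicle and 0.42 in DFO. Under these weights Mxd4 differed by 0.16 and 0.14, and Mycn by 0.30 and 0.33. Weighted to their phase calls, Mnt differed by 0.27 and 0.35, Mxd4 by 0.22 and 0.15, and Mycn by 0.20 and 0.315. Over all genes compared, 3.63% were 0.25 or more higher in Myc-high cells of both libraries and 3.66% were lower. All 30 G2/M genes entered, and 27 were 0.25 or more lower in Myc-high cells of both libraries, with medians of -0.51 in vehicle and -0.66 in DFO beside 0.01 and -0.004 over all genes compared. Ckap2l (-1.30 and -1.08) and Cenpf (-0.74 and -0.99) were lowest, and Anln and Cdk1 highest. Of 30 S phase genes 11 were 0.25 or more higher and none lower, with medians of 0.29 and 0.21, led by the DNA repair enzyme Ung (0.93 and 0.84) and cyclin gene Ccne2 (0.59 and 0.67). Of 7 megakaryocyte markers 5 were lower, with medians of -0.60 and -0.40, and their list summed to 1668 CPM in Myc-zero and 792 CPM in Myc-high vehicle cells, 766 and 461 CPM in DFO cells. Compared within phase calls, the G2/M medians were -0.071 and -0.23 and the S phase medians 0.075 and 0.043. Compared within clusters, the megakaryocyte medians were -0.015 and 0.18. The phases were called from these same S and G2/M genes, and the clustering did not leave out megakaryocyte markers. Smaller medians within phases or clusters were thus partly built in, and no cause is read from them.

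Genes regarded as direct MYC targets, from lists that share a few members with the S phase list, differed less between these classes. Their counts stand beside the 3.63% of all genes compared that were 0.25 or more higher in both libraries and the 3.66% that were lower. The count of 1 among 29 ribosome assembly genes is close to that share. Of 29 ribosome assembly genes 1 was 0.25 or more higher in both libraries, the nucleolar GTPase gene Gnl3 (0.34 and 0.38), and none was lower, with medians of 0.20 in vehicle and 0.065 in DFO. Rrp12 was the lowest, at -0.23 in both. Of 16 nucleotide and polyamine genes 1 was higher, Umps (0.41 and 0.27), with medians of 0.008 and 0.082. None of 15 translation and folding genes and none of 9 glucose genes passed in either direction. The cell cycle targets split, with 4 of 10 higher, among them Ccne1 (0.53 and 0.64) and Mcm4 (0.41 and 0.47), and 2 lower, Ccna2 (-0.56 and -0.58) and Cks2 (-0.51 and -0.54). Of 11 genes known to be repressed by MYC 2 were lower, Klf6 (-0.71 and -0.57) and the CDK inhibitor Cdkn1b (-0.41 and -0.50), and 1 was higher, the myeloid factor Cebpa (1.32 and 0.63). Cebpa was under the 10 CPM minimum in the Myc-zero cells of both libraries, so it entered through the Myc-high cells and had to differ. Cdkn1a differed by 0.23 and 0.52.

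**Figure D5:**
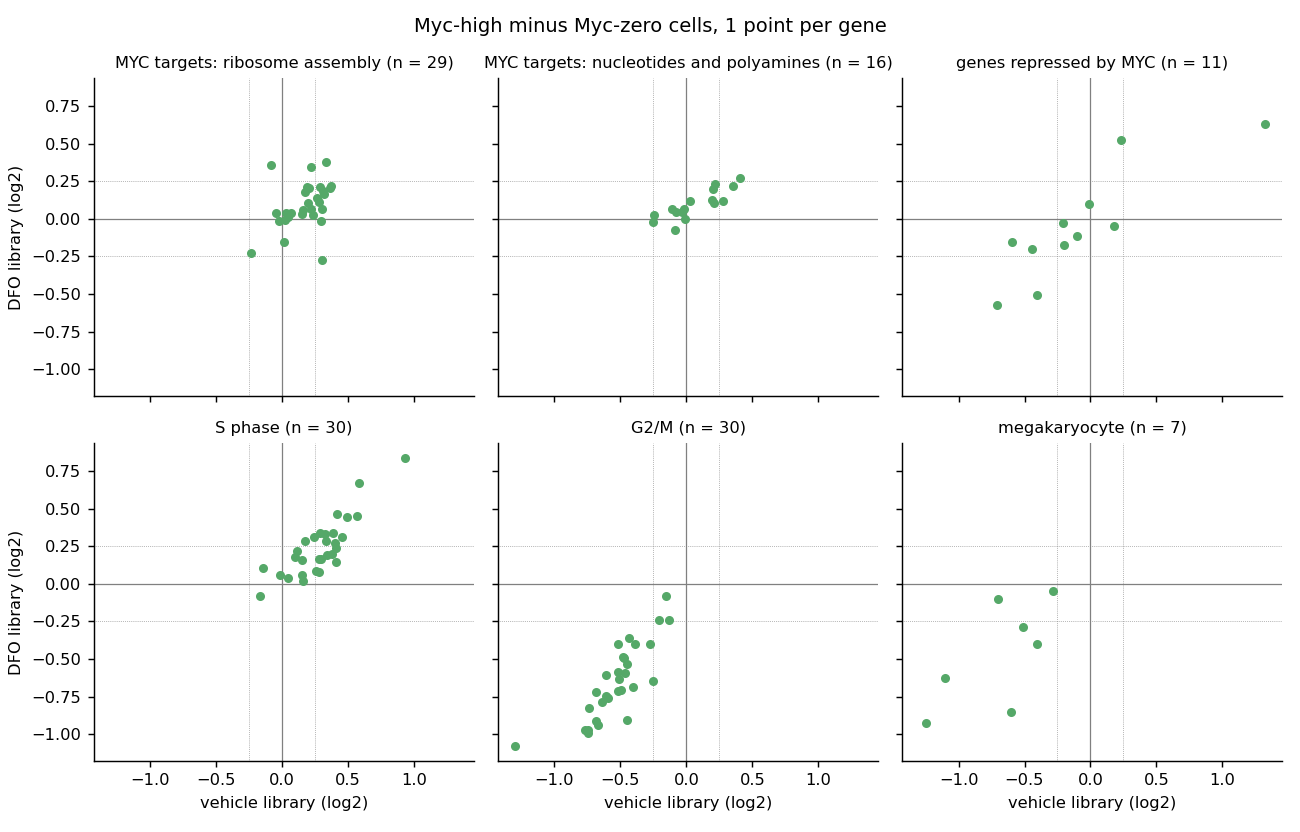
Log2 difference between Myc-high and Myc-zero cells in the vehicle library (x axis) and the DFO library (y axis), 1 point per gene, for 6 lists. Dotted lines mark 0.25 in either direction. All 30 G2/M genes lie below 0 in both libraries, while 11 of 30 S phase genes and 1 of 29 ribosome assembly genes lie past 0.25 in both. Over all genes compared, 3.63% lie past 0.25 in both.

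Over all genes, the 10 highest in Myc-high cells by the mean of both libraries included Ccl9, Hk3, Igfbp7, Shisa8, Cebpa, Ctsg, Ung, Paqr5 and Milr1. A gene entered with 10 CPM in any class, and Hk3, Igfbp7, Cebpa, Ctsg, Paqr5 and Milr1 were under 10 CPM in the Myc-zero cells of both libraries, so the filter itself favoured them. Ccl9, a chemokine gene, went from 29.7 to 66.7 CPM in vehicle (1.14) and from 25.6 to 58.4 CPM in DFO (1.16). Hk3, a hexokinase gene of myeloid cells, differed by 1.23 and 0.87, and Ctsg by 1.65 and 0.14. With Myc-zero cells weighted to the clusters of the Myc-high cells, Ccl9 differed by 0.53 and 0.78 and Ctsg by 0.61 and -0.56, so no direction is read for Ctsg. The neutrophil-monocyte markers summed to 190 CPM in Myc-zero and 318 CPM in Myc-high vehicle cells, and to 176 and 227 CPM in DFO cells. Prtn3 made up most of each sum, from 162 to 252 CPM in vehicle and from 144 to 201 CPM in DFO cells. In DFO cells Ctsg went from 5.92 to 6.61 CPM, but Ms4a3 went from 15 to 14.6 CPM, Mpo from 5.58 to 4.67 CPM and Elane from 4.6 to 0 CPM.

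The 10 lowest were Ccdc180, Ckap2l, Col18a1, Ehd3, Mt2, Cavin2, Prr11, Pf4, Tesc and Nt5e. Here Ccdc180, Ehd3, Mt2, Cavin2, Prr11, Tesc and Nt5e were under 10 CPM in the Myc-high cells of both libraries. They entered through the Myc-zero cells, so the filter itself favoured them. Pf4, which codes for platelet factor 4, went from 1339 to 564 CPM in vehicle (-1.25) and from 553 to 291 CPM in DFO (-0.92). With the cluster weights its differences were -0.47 and -0.10, and those of Tesc -0.31 and -0.15. Both genes were among the 10 leading genes of the megakaryocyte-like cluster, so smaller values under these weights were partly built in. Under the same weights Ckap2l went from -1.30 and -1.08 to -0.73 and -0.62, and Col18a1, which codes for a collagen, from -1.29 and -1.03 to -0.65 and -0.48. Of the 282 genes higher in both libraries, 138 were also 0.25 or more higher in both with the cluster weights, and of the 284 lower ones 108 were also lower. In the left-over molecules of the same cells 143 of the 282 and 153 of the 284 passed 0.25 in both libraries again.

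The vehicle to DFO comparison gave the targets another pattern, to be read against the 19.2% of all genes that were 0.1 or more higher and the 14% that were 0.1 or more lower. Of 29 ribosome assembly genes 17 were 0.1 or more higher in the DFO library and none lower, with a median of 0.12 beside 0.019 over all genes. Pno1 (0.26, from 82.9 to 99.5 CPM) and Noc4l (0.25) were highest, Wdr74 (-0.089) and Ppan (-0.014) lowest. Of 16 nucleotide and polyamine genes 11 were higher and none lower, with a median of 0.12, Odc1 (0.21, from 282 to 327 CPM) and Gart (0.19) at the top. Of 15 translation and folding genes 7 were higher, with a median of 0.091, between Hspd1 (0.18) and Eif5a (-0.093). Among 9 glucose genes 2 were higher, the lactate transporter gene Slc16a1 (0.22) and Hk2 (0.15), and 4 lower, with Tpi1 (-0.21) and Pkm (-0.14) lowest. The cell cycle targets had 1 of 10 higher, Cdc25a (0.14). S phase genes had 16 of 30 higher and none lower, with a median of 0.11, and G2/M genes 4 of 30 higher and 2 lower. Of 11 genes repressed by MYC 6 were 0.1 or more lower and none higher, with a median of -0.15, among them Btg2 (-0.64, from 19 to 11.8 CPM) and Ndrg1 (-0.24). Similar lists had been summarised from these tables before, so the target result is no independent support.

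Partners of these factors were measured too, against the same 19.2% of all genes higher; the counts of 3 among corepressors and among turnover genes are close to that share. Of 13 MYC coactivators 7 were 0.1 or more higher in the DFO library and none lower, with a median of 0.12, led by the acetyltransferase gene Kat2a (0.20) and the ATPase gene Ruvbl2 (0.15), while Ep400 (-0.041) was lowest. Of 12 corepressor genes used by MXD and MNT 3 were higher and none lower, with a median of 0.067, from Sap30 (0.21) and Rbbp7 (0.16) to Ncor1 (-0.034) and Arid4b (-0.065). Of 14 genes of MYC turnover and binding 3 were higher and none lower, with Trim32 (0.16) among the highest and Pim2 (-0.066) and Pim1 (-0.083) lowest. Between Myc-high and Myc-zero cells neither coactivators nor corepressors had a gene past 0.25 in both libraries. Over all genes compared, 3.63% passed that line upward and 3.66% downward. In the turnover list 3 of 12 were higher, among them Usp36 (0.44 and 0.51), a deubiquitinase gene, and Pim1 (0.42 and 0.39), a kinase gene, and 1 was lower, Aurka (-0.59 and -0.76), which is also on the G2/M list.

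The E-box in promoters was counted for these sets. It was present in 25.5% of the promoters of the fixed MYC target lists, 24 of 94. By list, it was in 37.5% of promoters of the translation and folding genes, 26.3% of the nucleotide and polyamine genes, 23.1% of the ribosome assembly genes, 18.8% of the glucose genes, 11.1% of the cell cycle targets and 11.8% of the genes repressed by MYC. Among genes higher in Myc-high cells of both libraries it was in 9.71% of promoters and among those lower in 7.02%, beside 10.8% for all genes compared between the classes.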

How the data were processed

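The authors deposited 1 table per library, with genes in rows, cells in columns and natural log values of scaled molecule counts plus 1. Per the submitters' processing notes, FastQC 0.11.9, Trim Galore 0.6.5, Cell Ranger 3.0.2 and build mm10 were used. How cells were filtered is not stated there. Back-transformed, a cell sums to at most 27408, and all values were whole multiples of 1 molecule within 0.05, so molecules were recovered. All cells were used, and doublets were not called. The 7 members, lists and markers were chosen with earlier results of these data known.

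Sums were scaled to CPM, with 1 CPM added for log2 differences. No test was run, since each group is 1 library. Cells were thinned without replacement to 10000 UMIs for Myc classes, phases (scanpy 1.11.5) and shares. Clustering used 2000 variable genes without the members, phase, mitochondrial and ribosomal protein genes, 30 components, 15 neighbours, shared-neighbour weights and Leiden (leidenalg 0.10.2) at resolution 0.5. A cluster was named from at least 3 detected markers, with some among its 10 leading genes. List members needed a mean of 5 CPM between cultures, or 10 CPM in a class. Named genes are the network genes, the 10 highest and lowest genes between Myc classes, the 2 highest and lowest of a list, and the 5 most like Myc. Other gene names describe clusters or markers and were picked after their values were seen. The log2 difference used for class contrasts was checked on simulated Poisson sums of genes, without single cells, thinning or class calls. Alternatives covered scaling, pseudocount, cell filters, cluster and phase weights, thinning depth and class cut. Some items that these rules select are not reported here.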

Additional observations from a re-analysis of the deposited data

Results flagged for a closer look

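Mlxip, which codes for a partner of MLX, moved in opposite directions in the libraries between Myc-high and Myc-zero cells, by 0.34 in vehicle and by -0.16 in DFO on the log2 scale. Both counting intervals include 0, the difference between the libraries was not tested, and in the left-over molecules the values were 0.046 and 0.026.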

How the results depend on the processing

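With 1 library per group no replicate could be left out. The Myc difference between the cultures kept its direction under all 8 alternatives, at 0.17 with equal cluster shares, 0.20 in thinned cells and within its counting interval otherwise. The balance difference kept its direction under all 10, at 0.36 by the mean of per-cell CPM, 0.20 with Mxd1, Mxd3 and Mga, 0.51 against Mxd4 only and 0.16 against Mnt only. The antagonist sum stayed within its interval in both libraries. The 282 genes higher and 284 lower in Myc-high cells became 183 and 182 with a cut at 3 molecules, 177 and 118 with cluster weights, and 126 and 165 with a pseudocount of 10 CPM, and were larger, at 331 and 353 thinned to 5000 UMIs, 390 and 290 thinned to 20000 UMIs and 413 and 393 at a minimum of 5 CPM. The higher count was 175 at a minimum of 20 CPM, and the lower count 147 within phase calls. A cut at no more than 5% of cells gave the same threshold. Among network gene differences whose interval left out 0, the sign turned for Mycn in vehicle cells (-0.10, left-over molecules). It also turned for Mga in DFO cells (-0.017, thinned to 5000 UMIs). Signs changed as well for several differences whose intervals included 0, such as those of Mxi1 and Mlx between Myc classes. Myc was higher in DFO in 77.8% of the 9 clusters, and in 100% of 4 clusters at resolution 0.25 and of 16 at resolution 1. With 366 and 514 Myc-high cells, genes near 10 CPM have wide counting intervals.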

Other observations

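Over the 18 sums of 9 clusters and 2 libraries, the genes whose log2 level followed Myc most closely among 7392 genes were Ift57 (r = 0.95), Nrros (0.94), Gsr (0.90), Igsf8 (0.90) and Rtcb (0.89). Mycn ran with other genes, Hmgn3 (0.96), Vasp (0.94), Tcf15 (0.93), Ryk (0.93) and the cytokine-induced gene Cish (0.93), and had r = -0.37 with Myc. The genes most like Mycn were named after their values were seen. These sums share 2 libraries and clusters of unequal depth, and the values describe them only. Pvt1, the long noncoding RNA gene next to Myc, lay at 4.29 CPM in the vehicle and 5.03 CPM in the DFO library, a difference of 0.19. Pvt1 was on no list and under the 5 CPM minimum.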
